A study of Homo sapiens with 4 samples.

Results

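The CEACAM and mucin tumour surface antigens are epithelial glycoproteins that serve as serum markers or therapy targets in pancreatic and gut cancers. The set was given by name as 10 genes: CEACAM1, CEACAM5, CEACAM6, CEACAM7, MUC1, MUC4, MUC5AC, MUC13, MUC16 and MUC20. Of the 10, 8 had a named transcript cluster on the array (a probe set that summarises 1 locus), 1 cluster each, among 17687 gene symbols in all. MUC4 and MUC20 had no transcript cluster of that name and were not analysed here.

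Total RNA came from SUIT2 cells, an established human tumour line grown in RPMI medium with serum. Cells of the fb-PMT group received fb-PMT at 30 µM for 24 h (n = 2 arrays), and control cells, titled untreated, received phosphate-buffered saline for the same time (n = 2 arrays). fb-PMT joins a thyroid hormone analog, tetraiodothyroacetic acid, to polyethylene glycol and was made to block the hormone's site on integrin αvβ3. Whether replicates were separate cultures is not stated, so the tests take in only array-to-array spread, which may be technical, and a single line limits the comparison to that line.

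The labels name glioblastoma as the cell type, although SUIT-2 derives from pancreatic ductal adenocarcinoma. All 5 glial markers, GFAP and OLIG2 among them, lay below the array's negative controls on all 4 arrays. Of 6 ductal epithelial markers 5 lay above them, KRT8, KRT18, KRT19 and EPCAM included, and CDH1 did not. Values are log2 RMA values, and a gene was called below the negative controls under the 95th percentile of 612 negative control probe sets, which was 7.15 to 7.38 on the 4 arrays. All immune (4) and endothelial (3) markers lay under it, as were 3 of 4 fibroblast markers, all but COL1A2. The summed level of the ductal epithelial list on the log2 scale was 17.58 and 17.61 on the fb-PMT arrays and 17.79 and 17.78 on the control arrays. The glial list, at background level, did not overlap either, with 6.54 and 6.41 on the fb-PMT arrays and 6.63 and 6.56 on the control arrays. The summed levels were not tested. Within the ductal epithelial list KRT7 was at -0.95 (SE 0.17, adjusted p = 0.192) and EPCAM at 0.35 (SE 0.15, adjusted p = 0.459). With an intensity trend in the variance, KRT7 (adjusted p = 0.00233), KRT18 (0.0216) and KRT8 (0.0463) passed lower and EPCAM (0.0371) higher. Of all transcript clusters 0.513% passed lower and 1.37% higher in that model. The part of these marker differences in the results below was not tested.

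CEACAM proteins are members of the immunoglobulin superfamily that bind each other between neighbouring cells. CEACAM1 crosses the membrane and has an inhibitory signalling motif in its long cytoplasmic tail, while CEACAM5 (carcinoembryonic antigen), CEACAM6 and CEACAM7 are held by a lipid anchor. Mucins carry dense O-linked glycans on repeats rich in serine and threonine. MUC1, MUC13 and MUC16, which carries the CA125 epitope, are transmembrane mucins of epithelial surfaces, and MUC5AC is a secreted, gel-forming mucin of stomach and airway that appears in pancreatic cancer lesions.

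CEACAM1 had the largest difference among the members above the negative controls, and CEACAM6 differed in the other direction. CEACAM1 measured 12.01 and 11.78 on the fb-PMT arrays, against 10.84 and 11.01 on the control arrays. Both fb-PMT values lay above both control values. The means were 11.90 ± 0.16 with fb-PMT and 10.93 ± 0.12 in the controls (SD, n = 2 each), a log2 difference of 0.97 (SE 0.17, 95% interval 0.55 to 1.38) or 1.95-fold. In limma's test this did not pass (adjusted p = 0.186 over 21448 transcript clusters). It ranked 155th by unadjusted p, and 217 transcript clusters, CEACAM1 included, had a difference at least as large in size. The cluster sums the transcript isoforms of CEACAM1, so long and short cytoplasmic tails were not told apart.

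CEACAM6 measured 10.68 and 10.59 on the fb-PMT arrays, against 11.14 and 11.20 on the control arrays. Both fb-PMT values lay below both control values. The means were 10.64 ± 0.064 with fb-PMT and 11.17 ± 0.038 in the controls (SD, n = 2 each), a log2 difference of -0.53 (SE 0.15, 95% interval -0.90 to -0.17, 1.45-fold). It did not pass limma's test (adjusted p = 0.342).

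CEACAM5, the gene next to CEACAM6 on chromosome 19, had overlapping values in the groups. It measured 7.83 and 7.88 with fb-PMT and 7.68 and 7.88 in the controls. These values were close above the negative controls. The log2 difference was 0.075 (SE 0.16, 95% interval -0.31 to 0.46, adjusted p = 0.897). CEACAM7, on the other side of CEACAM5, measured 3.25 and 2.98 with fb-PMT and 2.89 and 3.19 in the controls. It lay below the negative controls on all 4 arrays, and no fold is given. CEACAM genes resemble each other in sequence, and the probes were not examined here for matches to several of them, so the division of signal between CEACAM5, CEACAM6 and their relatives is uncertain.

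CEACAM1 was also set against CEACAM6 within each array, a pair chosen after their values were seen. The log2 value of CEACAM1 minus that of CEACAM6 was 1.33 and 1.19 on the fb-PMT arrays and -0.30 and -0.18 on the control arrays. The means were 1.26 ± 0.097 and -0.24 ± 0.082 (SD, n = 2 each), and their difference was 1.50 (plain SE 0.090). That SE comes from the 2 arrays of each group alone. It is not limma's, which was 0.17 for CEACAM1 and 0.15 for CEACAM6. The pair was picked for its opposite directions, so this is a description with no test. The subtraction removes a constant shift of an array and nothing that varies with intensity.

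**Figure D1:**
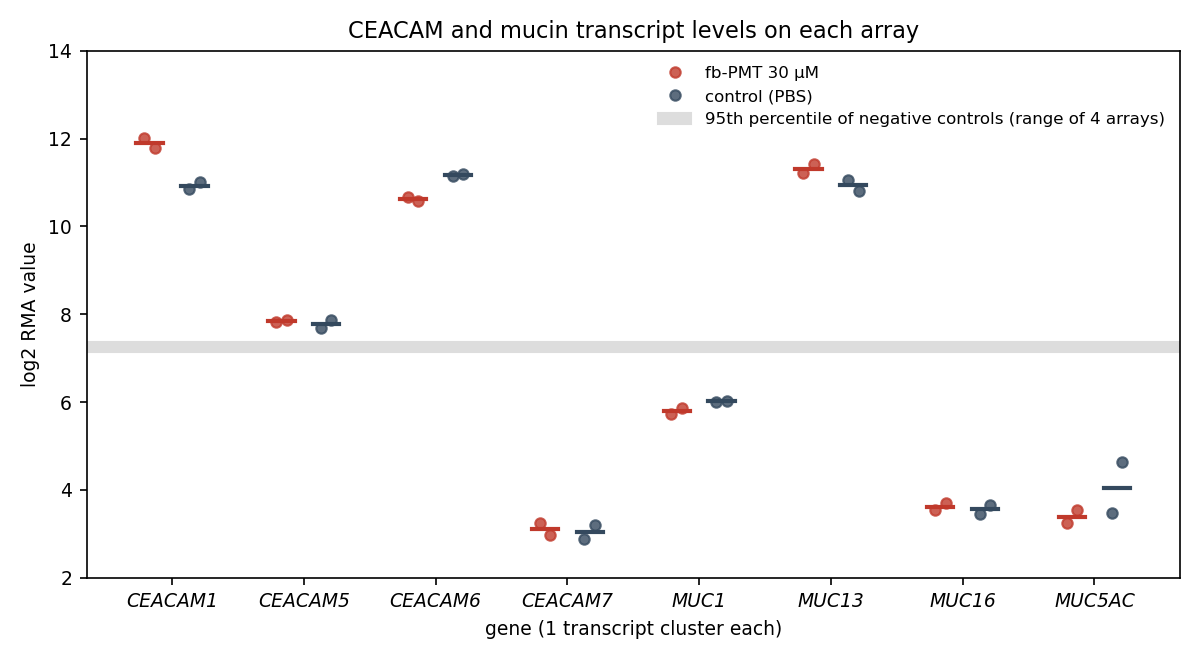
Log2 RMA value of each of the 8 measured members (horizontal axis, 1 gene per position) on each array. Points are single arrays, short lines are group means, fb-PMT (red) stands left of control (dark), and the grey band is the range of the negative controls' 95th percentile, 7.15 to 7.38. CEACAM1, CEACAM6 and MUC13 lie clear of the band, with groups that do not overlap, CEACAM5 lies close above it, and CEACAM7, MUC1, MUC16 and MUC5AC lie under it.

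The sequences before the annotated starts of the 4 CEACAM members are shown because the genes arose by duplication and still resemble each other there. They are RefSeq sequences of GRCh38.p14, bases -160 to -31 before the start, 130 bases each, written 5′ to 3′ along the gene's strand. They lie at chr19:42528512-42528641 (CEACAM1, minus strand), chr19:41708466-41708595 (CEACAM5, plus strand), chr19:41755370-41755499 (CEACAM6, plus strand) and chr19:41688301-41688430 (CEACAM7, minus strand). Capitals mark matches on either strand to 3 motifs: the core of the interferon response element (GAAANNGAAA, N being any base), the E box CACGTG and the GC box GGGCGG.
CEACAM1: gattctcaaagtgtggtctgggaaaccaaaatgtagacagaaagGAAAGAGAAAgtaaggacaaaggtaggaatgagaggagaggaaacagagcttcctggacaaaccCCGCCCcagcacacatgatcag
CEACAM5: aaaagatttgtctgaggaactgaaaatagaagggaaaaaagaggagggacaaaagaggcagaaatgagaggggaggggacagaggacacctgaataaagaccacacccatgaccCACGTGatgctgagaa
CEACAM6: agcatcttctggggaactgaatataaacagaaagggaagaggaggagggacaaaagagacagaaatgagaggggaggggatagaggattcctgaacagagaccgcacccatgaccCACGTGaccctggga
CEACAM7: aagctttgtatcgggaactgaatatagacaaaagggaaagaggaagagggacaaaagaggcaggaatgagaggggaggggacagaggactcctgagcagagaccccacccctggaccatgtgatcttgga

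Over the 250 bases before the start, the CEACAM1 sequence was 77.1% identical to that of CEACAM5, 76.3% to CEACAM6 and 82.4% to CEACAM7 over aligned bases. The other pairs were 80.4% to 84.0% identical. Within windows of 250 bases before and 50 after the start, the interferon response element core matched in CEACAM1 alone among the 7 measured members with a window, at bases -116 to -107. That core occurred in 3.57% of all 35116 promoter windows. The E box matched in CEACAM5 (bases -46 to -41) and CEACAM6 (bases -45 to -40) and occurred in 7.26% of windows. The GC box matched in CEACAM1, CEACAM6, MUC1 and MUC16 (in 1 of the 2 windows of MUC16) and is common, with 45.0% of windows. The motifs did not overlap each other in the members, except that neighbouring GC boxes of MUC1 shared bases. MUC13 and CEACAM7 had no match to these letters. As background, IRF1 is known to bind the interferon response element of the CEACAM1 promoter, and USF factors the E box of the CEACAM5 promoter. A match describes letters only. The motifs were chosen after values were seen, and whether any factor acted at a member's promoter was not tested.

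**Figure D2:**
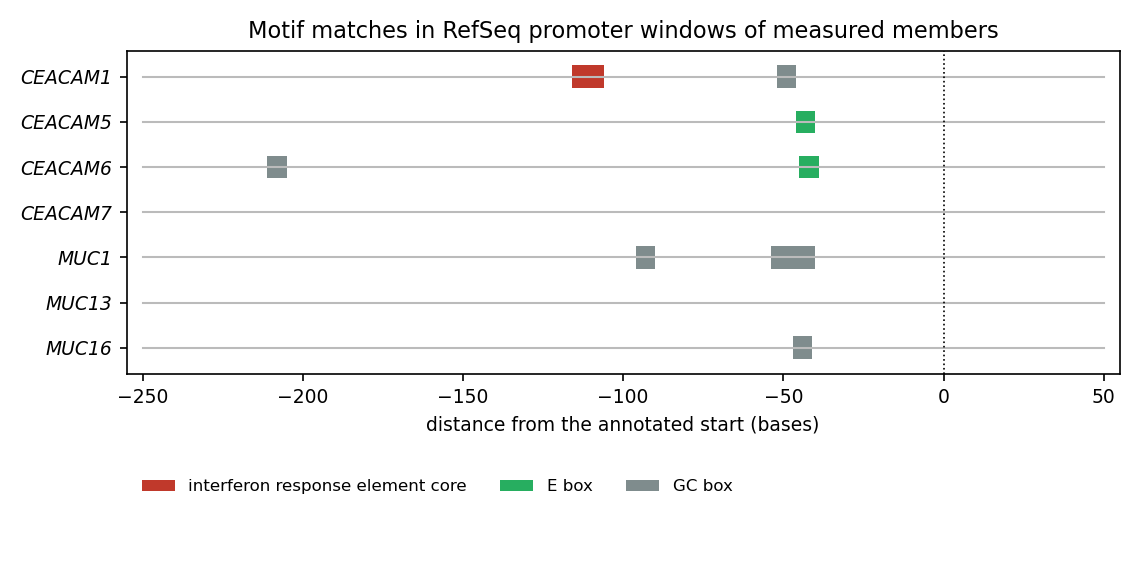
Positions of the motif matches in the promoter windows of the 7 measured members with a RefSeq window (1 line per gene, first window where a gene has several), against the distance from the annotated start in bases. The interferon response element core (red) is found in CEACAM1 alone, and the E box (green) at nearly the same distance in CEACAM5 and CEACAM6.

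Of the factors known at CEACAM and mucin promoters, IRF1, which drives interferon-stimulated genes, was the 1 of 9 measured genes to pass the test. Of all transcript clusters 0.0979% passed, and the list was chosen with earlier results known. IRF1 measured 10.35 and 10.56 with fb-PMT and 7.83 and 7.64 in the controls, and rose by 2.72 on the log2 scale (SE 0.17, adjusted p = 0.0179). USF1 was at 0.36 (SE 0.18, adjusted p = 0.516), STAT3 at 0.19, SP1 at 0.12, RELA at -0.046, NFKB1 at -0.063 and CDX2, a gut lineage factor, at 0.026. Besides IRF1, USF1 and STAT3 were higher with groups that did not overlap (20.2% of all transcript clusters) and GATA6, at -0.22 (SE 0.16), was lower without overlap (22.3% of all). None of the 8 factors other than IRF1 passed.

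The genes most like CEACAM1 in pattern over the 4 arrays were SLC6A8, RIGI and CD74. They were found among 8453 named transcript clusters above the negative controls on at least 1 array. The measure was the smallest Euclidean distance after the control mean was subtracted. SLC6A8, the creatine transporter, measured 9.38 and 9.07 with fb-PMT and 8.17 and 8.33 in the controls (distance 0.063 on the log2 scale). RIGI, a sensor of foreign RNA, measured 8.44 and 8.21 with fb-PMT and 7.35 and 7.50 in the controls (distance 0.094). CD74, the invariant chain of MHC class II, measured 11.22 and 11.13 with fb-PMT and 10.13 and 10.28 in the controls (distance 0.099). Their adjusted p-values were 0.147 to 0.209, so none of the 3 passed. Likeness over 4 arrays in 2 groups says little beyond a similar difference between the groups.

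The nearest measured genes on either side of CEACAM1 were CXCL17 and CEACAM8, both below the negative controls in both groups. The genes next to CEACAM6 were CEACAM5 and CEACAM3, and CEACAM3, a receptor of granulocytes, was below the negative controls in both groups.

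Among the mucins, MUC13 was the 1 measured member above the negative controls. MUC13 measured 11.21 and 11.42 with fb-PMT and 11.07 and 10.80 in the controls. Both fb-PMT values were above both control values, by as little as 0.14 and as much as 0.62 on the log2 scale between single arrays. The means were 11.31 ± 0.15 with fb-PMT and 10.93 ± 0.19 in the controls (SD, n = 2 each), a log2 difference of 0.38 (SE 0.18, 95% interval -0.056 to 0.81), which did not pass limma's test (adjusted p = 0.502). The interval includes 0.

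The other 3 measured mucins lay below the negative controls on all 4 arrays, and their differences are those of signals at background level, not folds of expression. MUC1 measured 5.74 and 5.86 with fb-PMT and 6.01 and 6.02 in the controls, and its groups did not overlap (log2 difference -0.22, SE 0.15, adjusted p = 0.629). MUC16 measured 3.54 and 3.70 with fb-PMT and 3.46 and 3.65 in the controls, and its groups overlapped. MUC5AC measured 3.25 and 3.54 with fb-PMT and 3.47 and 4.64 in the controls. The high MUC5AC value was that of control replicate 2: the log2 difference of -0.66 (SE 0.38) became -0.077 without that array and -1.25 without control replicate 1. Whether the RNA of these genes was absent or their probes were dim was not tested. For MUC5AC the neighbours in the mucin cluster of chromosome 11, MUC2 and MUC5B, were below the negative controls too.

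**Figure D3:**
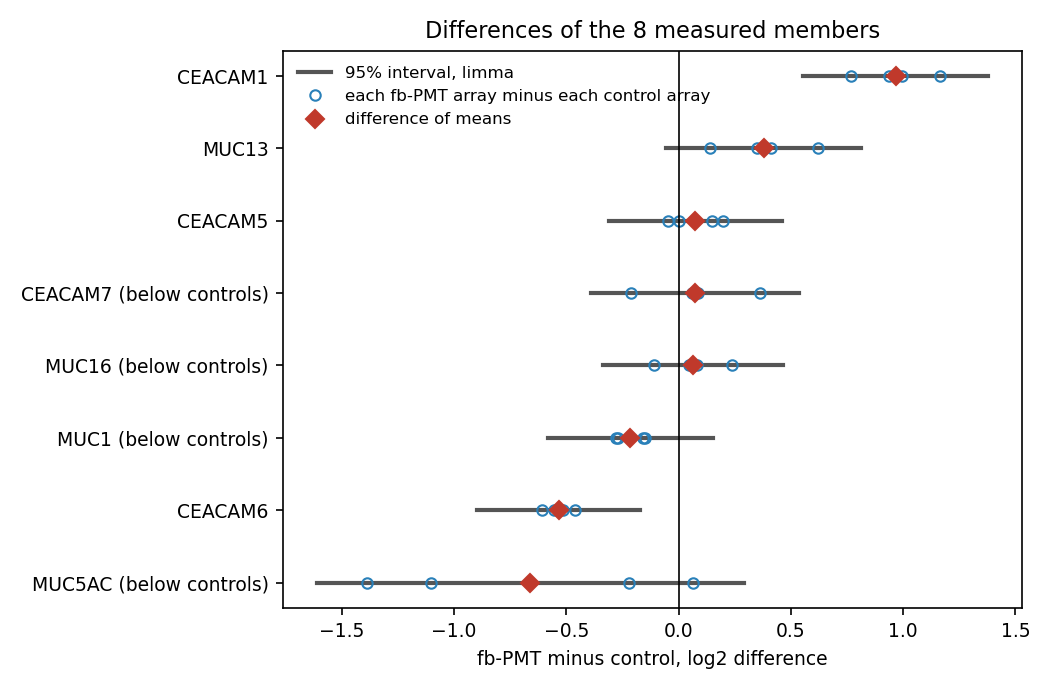
Difference of fb-PMT minus control (log2, horizontal axis) for the 8 measured members. Diamonds are differences of means, open circles the 4 differences between single arrays, bars limma's 95% intervals, and "below controls" marks genes under the negative controls on all 4 arrays. The intervals of CEACAM1 and CEACAM6 leave out 0 before adjustment over all transcript clusters, on opposite sides, and those of the other 6 include it.

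In all, 0 of the 8 measured members passed limma's test at an adjusted p of 0.05, where 0.0979% of all transcript clusters did, every one of them higher with fb-PMT (0.0979% higher, 0% lower). At an unadjusted p under 0.05, 1 member was higher (CEACAM1, against 5.7% of all transcript clusters) and 1 lower (CEACAM6, against 5.49%). Together that is 2 of 8, against 11.2% of all. The groups did not overlap for 4 of 8 members, against 42.6% of all transcript clusters, with 2 higher (20.2% of all) and 2 lower (22.3% of all), a share close to the background. The median log2 difference was 0.068 over the 8 members and -0.017 over all transcript clusters.

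Whether CEACAM1 passed depended on the variance model. The spread between replicates was larger for dim transcript clusters: the median residual SD on the log2 scale was 0.216 for those under the negative controls on every array and 0.119 for those over them on every array. With an intensity trend in the variance, CEACAM1 passed (SE 0.13, adjusted p = 0.00284), 1 of 8 members against 1.88% of all transcript clusters (1.37% higher, 0.513% lower). CEACAM6 then missed the threshold narrowly (adjusted p = 0.0546), and MUC13 did not pass (adjusted p = 0.26). CEACAM1 also passed without a trend (adjusted p = 0.015) among transcript clusters above the negative controls on both arrays of at least 1 group. A transcript cluster could enter that filter through 1 group alone. When 1 array was left out, the log2 difference of CEACAM1 ran from 0.853 to 1.08. Those fits had a single array in 1 group, so no p-value is given for them. Whether CEACAM1 passed with the trend then depended on which array was left out.

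Relatives of the members were mostly under the negative controls. Of 6 other measured CEACAM genes all 6 were below them on all 4 arrays, and 0 passed (CEACAM16 at -0.30 and CEACAM3 at -0.28 had the smallest p). Of 14 other measured mucins and sialomucins 12 were below them, and 0 passed. CD164, a sialomucin also called endolyn, measured 13.95 and 14.16 with fb-PMT and 13.34 and 13.46 in the controls (log2 difference 0.65, SE 0.16, adjusted p = 0.297, and 0.00726 with an intensity trend). EMCN was below the negative controls. PODXL, a sialomucin like CD164 and the other one above the negative controls, was at -0.075 (SE 0.15).

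Other antigens known on the surface of pancreatic tumours showed no common direction. Of 16 measured genes 8 were higher and 8 lower, with a median of 0.010, and 0 passed. TSPAN8, a tetraspanin of gut tumours, measured 12.87 and 13.03 with fb-PMT and 11.94 and 11.86 in the controls (log2 difference 1.06, SE 0.15, adjusted p = 0.123). CD24, a small glycoprotein with a lipid anchor, measured 14.01 and 14.07 with fb-PMT and 13.54 and 13.49 in the controls (log2 difference 0.53, SE 0.15, adjusted p = 0.343). With an intensity trend 3 of the 16 passed, all higher: TSPAN8 (adjusted p = 0.000409), CD24 (0.0105) and EPCAM (0.0371). In that model 1.88% of all transcript clusters passed (1.37% higher), and the list was chosen with earlier results known. MSLN (mesothelin), which binds MUC16, was at -0.38 (SE 0.22), CDH17 at -0.37 (SE 0.18) and CD44 at -0.080 (SE 0.15).

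Among the enzymes that build mucin O-glycans, GCNT3 had the largest difference, which did not pass without an intensity trend. Of 25 measured genes 15 were higher and 10 lower, 15 stayed under the negative controls on every array, and 0 passed, with a median of 0.018. GCNT3, which makes the branched core structures of mucin glycans, measured 11.45 and 11.47 with fb-PMT and 10.26 and 10.05 in the controls. Its log2 difference was 1.30 (SE 0.16, 2.47-fold, adjusted p = 0.0779). C1GALT1, which makes the core structure that GCNT3 branches, measured 11.22 and 11.21 with fb-PMT and 10.42 and 10.55 in the controls (log2 difference 0.73, SE 0.15, adjusted p = 0.246). With an intensity trend these 2 passed (adjusted p = 0.000404 for GCNT3 and 0.0128 for C1GALT1) and 0 others did. In that model 1.88% of all transcript clusters passed.

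Other genes of the list that were above the negative controls had no common direction, and those given here were named after their values were seen. GALNT2, which adds the first sugar to the protein, was at -0.52 (SE 0.15, adjusted p = 0.355), GALNT10 at -0.52 (SE 0.17, adjusted p = 0.378), and the sialyltransferase gene ST3GAL1, which caps the core that C1GALT1 makes, at -0.47 (SE 0.15, adjusted p = 0.378). GALNT7 was at 0.018 (SE 0.18). None of these passed in either variance model. FUT2, which makes the H antigen of secretions, was below the negative controls.

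All 4 sheddases of surface mucins and other membrane proteins were above the negative controls on at least 3 arrays and had both fb-PMT values above both control values, as did 20.2% of all transcript clusters, and 0 passed. ADAM10 measured 12.75 and 12.67 with fb-PMT and 12.32 and 12.30 in the controls (log2 difference 0.40, SE 0.15, adjusted p = 0.416). ADAM17 measured 10.60 and 10.37 with fb-PMT and 10.13 and 10.03 in the controls (log2 difference 0.40, SE 0.16, adjusted p = 0.446). Genes of mucin secretion and goblet cells were below the negative controls in 13 of 14 cases, ATOH1 and AGR2 among them, and 0 passed. FOXA1, the 1 above them, was at 0.41 (SE 0.15, adjusted p = 0.426).

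Of 13 measured binding or signalling partners 1 passed, against 0.0979% of all transcript clusters, in a list chosen with earlier results known. It was LGALS9, which encodes galectin-9, a lectin that binds glycoproteins at the cell surface. LGALS9 measured 10.37 and 10.52 with fb-PMT and 7.47 and 7.39 in the controls, and rose by 3.02 on the log2 scale (SE 0.15, adjusted p = 0.0123). LGALS9 has near-identical copies in the genome, so its value is uncertain. JUP (plakoglobin), a junction protein that can bind the MUC1 tail, was named after its value was seen. It measured 11.64 and 11.80 with fb-PMT and 9.92 and 10.19 in the controls (log2 difference 1.67, SE 0.17, adjusted p = 0.0589, and 0.000119 with an intensity trend). The receptor gene ERBB3 was at 0.53 (SE 0.19, adjusted p = 0.406) and EGFR at -0.42 (SE 0.15, adjusted p = 0.411). MET, LGALS3 (galectin-3) and SRC lay within 0.04 of 0. PTPN6, a phosphatase that binds the inhibitory motif of CEACAM1, was below the negative controls, and PTPN11, which binds it as well, was at -0.24 (SE 0.15, adjusted p = 0.6).

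**Figure D4:**
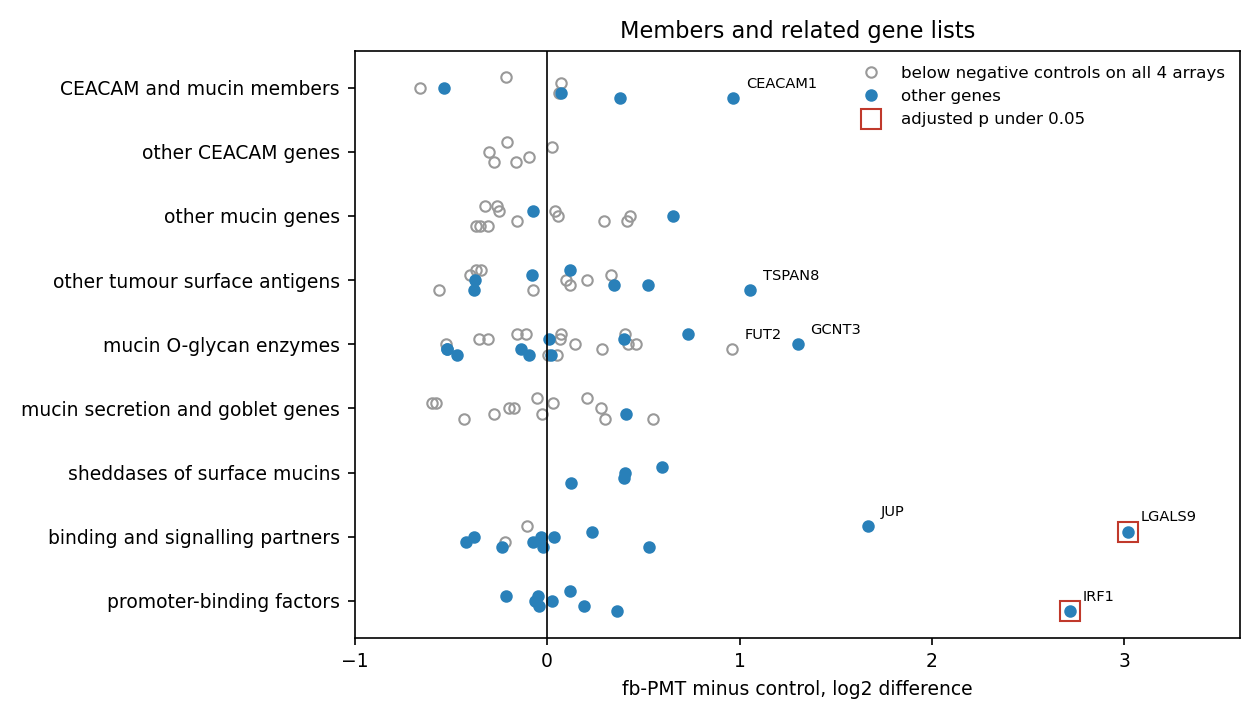
Difference of fb-PMT minus control (log2, horizontal axis) for every measured gene of the members and 8 related lists (rows). Filled points are genes above the negative controls on at least 1 array, open points those below them on all 4 arrays, and red squares mark an adjusted p under 0.05. LGALS9 and IRF1 carry the squares, and among the others CEACAM1, TSPAN8, GCNT3 and JUP stand to the right, with FUT2 below the negative controls.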

How the data were processed

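Per the labels' protocols, Trizol-extracted RNA of 4 SUIT2 samples was labelled with biotin as sense targets of whole transcripts, 1 sample per array. The authors deposited log2 values per probe set; the submitters' processing notes name RMA and Transcriptome Analysis Console (4.0.1.36). Which RMA variant, genome build and probes were used is not given in the sources used here. RMA normalizes between arrays, which removes a shift shared by most genes, and the number of arrays limits the precision (median SE of a log2 difference 0.175).

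Of 24351 probe sets, 21448 were transcript clusters and were tested, and 2903 were controls and were not. The platform annotation named 17709 of them with 1 symbol, 0 with several and 3739 with none. The fit used lmFit and eBayes of limma 3.58.1 (R 4.3.3) with no trend of variance on intensity, fb-PMT minus control, two-sided, with Benjamini-Hochberg adjustment over all 21448 and a threshold of 0.05. Groups and replicate numbers came from the sample titles. The fit was tested on simulated data with 200 changed transcript clusters in each of 20 runs.

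The members and lists were chosen with earlier results of these data known. All members are named, and from each list up to 4 passing genes or, where none passed, the 2 with the smallest p. Other genes named, and the 3 promoter motifs, were chosen after values were seen. Alternatives were the replicate block, a trend of variance on intensity (also robust), filters on dim transcript clusters, renewed quantile normalization, median centring, array weights, a threshold of 0.1, means per symbol and leaving out each array. Promoter windows are RefSeq's (GRCh38.p14). They covered 7 of the 8 measured members, all but MUC5AC.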

Additional observations from a re-analysis of the deposited data

How the results depend on the processing

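With 2 arrays a group, the counts depended on the variance model and on single arrays. The direction for CEACAM1, CEACAM6, MUC1, MUC13 and MUC5AC was the same in every alternative in which the gene was fitted. Most alternatives left the differences themselves unchanged and so could not turn a direction. Leaving out 1 array could not turn it for CEACAM1, CEACAM6, MUC1 and MUC13 either, because their groups do not overlap. The main count of 21 transcript clusters became 403 with an intensity trend and 394 with robust variances as well. It was 318 among transcript clusters above the negative controls on both arrays of at least 1 group. It was 67 without the lowest 30%, 73 at an adjusted p under 0.1 and 45 with means per symbol. It was 1 to 9 when 1 array was left out. The 0 members called became 1 (CEACAM1) with the trend, with robust variances and with that filter on the negative controls. With 1 array left out, a group held a single array, and the error rested on the other group's 2 arrays. Counts from such fits are given only to show the dependence on single arrays. Of alternatives chosen after seeing the data, the trend gave 129 transcript clusters and 0 members without fb-PMT replicate 1. Leaving out fb-PMT replicate 2 gave 118 with 1 member, and control replicate 2 gave 920 with 1. Leaving out control replicate 1 gave 584 with 3 (CEACAM1, CEACAM6 and, under the negative controls, MUC5AC). The trend above the negative controls, also chosen after seeing the data, gave 643 transcript clusters and 2 members (CEACAM1, and CEACAM6 at adjusted p = 0.0205).

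When 1 array was left out CEACAM1 ran from 0.853 to 1.08, CEACAM6 from -0.58 to -0.489, MUC13 from 0.244 to 0.514 and MUC5AC from -1.25 to -0.0771. Differences near 0 changed sign: CEACAM5 ran from -0.0233 to 0.173 (lower without control replicate 1), CEACAM7 from -0.0769 to 0.224 (-0.0627 without fb-PMT replicate 1) and MUC16 from -0.0338 to 0.16 (-0.0147 without fb-PMT replicate 2). The causes were not tested. The replicate numbers share only a number: same-numbered deviations correlated at 0.042, and with the replicate block 1 transcript cluster and 0 members passed. CEACAM7, MUC16, MUC5AC and MUC1 could not be fitted with the filter on negative controls, nor the first 3 with that on the lowest 30%.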
